A study of Mus musculus with 5 samples.

Results

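The genes described here are 28 genes of inhibitory signalling by GABA and glycine in the mouse retina: 10 GABA-A receptor subunits of the alpha, beta, gamma and delta families, 3 rho subunits, 2 GABA-B receptor subunits, 5 glycine receptor subunits, 3 enzymes, 4 transporters and 1 scaffold. They were taken by gene name from the table of estimated read counts, which lists 33636 genes, and each name had 1 row. Poly-A RNA was sequenced in retinas of male wild-type mice (strain C57BL6/J in the labels) at postnatal day 42. In each mouse the right eye had worn a head-mounted diffuser goggle from postnatal day 28, for 2 weeks, which blurs the image and induces form-deprivation myopia (FDM), and the left eye was left uncovered. There were 2 FDM libraries, with refractive errors at day 42 of 0.976 and 0.2745 dioptres, and 3 control libraries from uncovered eyes, at 2.4455, 3.1505 and 2.465 dioptres. The second FDM library is called FDM 3 here, after its column and the mouse number in the paper, while the labels number it 2. By these mouse numbers FDM 1 and Control 1 came from the 2 eyes of one mouse and FDM 3 and Control 3 from those of another, and the FDM partner of Control 2 was not analysed here. An uncovered eye shares its animal with the goggled eye, so all control retinas came from mice that had been form deprived in the other eye. The libraries are whole retinas, so fewer cells of a type and less RNA per cell cannot be told apart.

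GABA and glycine are the fast inhibitory transmitters of the retina: many amacrine cells release one or the other, and horizontal cells also make GABA. GABA-A receptors, those built of rho subunits, and glycine receptors are chloride channels of the same superfamily, while GABA-B receptors act through G proteins and need both of their subunits. Glutamate decarboxylase makes GABA from glutamate, a shared vesicular transporter loads both transmitters, and plasma membrane transporters take them up again.

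Promoter sequence is shown for 6 members: Gabrb2, which varied most between libraries, Gabrr2, the member whose FDM and control libraries did not overlap, its neighbour Gabrr1, Gad1, the member with the highest level, and Gabra4 and Gabrb1, neighbours on opposite strands whose annotated exons share 46 bases. Each window is RefSeq sequence of build GRCm38.p6 from 250 bases before to 50 bases after an annotated start, read 5′ to 3′ along the gene, and capitals mark a TATA box (TATAAA), a GC box (GGGCGG) or the core bound by the photoreceptor factor CRX (TAATCC), found on either strand.
Gabrb2, chr11:42420190-42420489, plus strand: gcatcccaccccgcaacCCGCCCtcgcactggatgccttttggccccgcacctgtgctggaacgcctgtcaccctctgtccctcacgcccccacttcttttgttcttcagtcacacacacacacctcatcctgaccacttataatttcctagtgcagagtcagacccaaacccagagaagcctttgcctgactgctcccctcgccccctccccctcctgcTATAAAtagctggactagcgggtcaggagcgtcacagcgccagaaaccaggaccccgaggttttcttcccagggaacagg
Gabrr1, chr4:33132306-33132605, plus strand: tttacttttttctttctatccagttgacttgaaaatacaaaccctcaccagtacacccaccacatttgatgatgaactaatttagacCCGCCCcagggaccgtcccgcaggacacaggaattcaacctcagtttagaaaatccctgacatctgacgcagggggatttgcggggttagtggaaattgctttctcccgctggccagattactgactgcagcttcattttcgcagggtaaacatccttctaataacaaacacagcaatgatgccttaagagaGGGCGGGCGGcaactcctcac
Gabrr2, chr4:33062862-33063161, plus strand: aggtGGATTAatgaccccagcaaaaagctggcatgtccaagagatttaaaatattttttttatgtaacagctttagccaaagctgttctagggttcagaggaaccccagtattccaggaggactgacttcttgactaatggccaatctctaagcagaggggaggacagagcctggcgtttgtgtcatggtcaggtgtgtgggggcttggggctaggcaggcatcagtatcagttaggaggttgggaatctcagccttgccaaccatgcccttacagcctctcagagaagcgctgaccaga
Gabra4, chr5:71658259-71658558, minus strand: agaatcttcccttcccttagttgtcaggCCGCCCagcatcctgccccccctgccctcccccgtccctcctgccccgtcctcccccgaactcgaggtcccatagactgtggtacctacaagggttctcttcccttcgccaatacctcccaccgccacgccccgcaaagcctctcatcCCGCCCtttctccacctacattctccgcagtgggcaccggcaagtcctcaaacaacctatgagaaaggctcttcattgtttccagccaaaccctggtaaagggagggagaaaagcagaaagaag
Gabrb1, chr5:71657671-71657970, plus strand: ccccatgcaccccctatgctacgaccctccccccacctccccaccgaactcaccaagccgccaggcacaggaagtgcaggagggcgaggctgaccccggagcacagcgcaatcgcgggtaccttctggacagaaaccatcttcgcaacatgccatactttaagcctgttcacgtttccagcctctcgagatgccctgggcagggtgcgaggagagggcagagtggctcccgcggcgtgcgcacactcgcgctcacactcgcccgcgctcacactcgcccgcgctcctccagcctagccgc
Gad1, chr2:70561879-70562178, plus strand: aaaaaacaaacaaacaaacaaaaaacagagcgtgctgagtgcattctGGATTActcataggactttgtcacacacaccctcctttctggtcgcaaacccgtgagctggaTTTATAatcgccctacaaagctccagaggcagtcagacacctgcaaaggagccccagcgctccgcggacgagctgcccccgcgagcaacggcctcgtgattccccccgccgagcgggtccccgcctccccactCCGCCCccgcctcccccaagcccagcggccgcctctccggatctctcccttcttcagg
The Gabrb2 window shown holds a TATA box and a GC box, and the Gad1 window holds one of each of the 3 motifs. The Gabrr1 window holds 3 GC boxes, of which the last 2 overlap. Gabrb2 and Gabrb1 have further windows, not shown, which hold none of these 3 motifs. The Gad1 window lies inside the annotated span of the gene, which starts at 70553072. Matches of different marked motifs do not overlap. The Gabrr2 window holds a CRX core and no GC box, and the Gabrb1 window holds none of these letters. RefSeq windows were found for 25 of the 28 members, 32 windows in all. A GC box was in 14 of these 32, against 35.67% of 32841 mouse promoter windows, a TATA box in 5, against 13.62%, and a CRX core in 4, against 7.064%. The cyclic AMP response element TGACGTCA was in 0 of the 32, against 1.79% of all windows, the homeodomain core TAATTA in 1, against 5.292%, and the E-box CANNTG in 16, against 72.32%. The median GC content was 57.67% in member windows and 52.67% in all windows. These matches describe the letters of the windows only.

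Totals ran from 40599047 to 56534931 counts per library. Counts are given as CPM, the count per 1000000 counts of the library total after edgeR's TMM scaling, which corrects for differences in composition between libraries. Markers of amacrine cells (8 genes, summed CPM 573 and 561 in FDM and 524 to 589 in control), horizontal cells (5 genes, 260 and 267 against 256 to 268) and bipolar cells (7 genes, 1383 and 1361 against 1321 to 1350) were present at similar summed levels in every library, and 0 of these marker genes had an unadjusted p under 0.05 in edgeR, nor did any marker of ganglion cells, Müller glia, cones, muscle or blood. The sums hide single genes: the horizontal cell marker Onecut1 had 3.09 and 2.99 CPM in FDM and 1.78, 5.14 and 2.17 in Controls 1, 2 and 3. With the mouse as a block in edgeR, which called 7.23% of genes, Onecut1 was called higher, by 0.62 (log2, adjusted p = 0.508). Among the markers of these cell types, that fit also called Aqp4 of Müller glia higher, by 0.20. It called the rod markers Gnat1 and Sag lower, with log2 fold changes of -0.15 and -0.17. The blood marker Hba-a2 (-0.26) and the muscle markers Myl1, Acta1 and Ckm (-4.69 to -0.69) were called lower there too. Markers of other tissues varied. The 6 lens markers found, of 7 listed, summed to 1775 CPM in FDM 3 against 2.33 to 15.9 in the other libraries. The 7 markers of the retinal pigment epithelium (RPE) summed to 61.2 and 50.5 in FDM and 67.9, 246 and 207 in Controls 1, 2 and 3. The 4 muscle markers summed to 46.3 CPM in Control 3 and to 6.29 to 7.65 in the other libraries. Whether these tissues contributed to the member genes was not tested.

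Levels between genes were compared as CPM per kb, that is, CPM divided by the length of the longest protein-coding transcript in GENCODE M21. Gad1, which encodes the larger form of glutamate decarboxylase (chr2:70553072-70602014), was highest, at 82.4 CPM per kb on average over the 5 libraries. The glycine transporter Slc6a9 followed at 60.4, the GABA transporter Slc6a11 at 51.4, the GABA-B subunit Gabbr1 at 45.5, the rho subunit Gabrr1 at 41.5 and the vesicular transporter Slc32a1 at 41.4. Among the GABA-A alpha, beta, gamma and delta members the highest were Gabrd, at 9.74, and Gabra3, at 9.37, and their ranges over the libraries (9.25 to 10.1 and 8.64 to 10.7) overlapped. The rho subunits, which form the slow GABA receptors known from bipolar cell terminals, made up 72.7% ± 0.407 (SD, n = 2) of the summed level per kb of the GABA-A and rho members in FDM and 73.0% ± 1.18 (SD, n = 3) in control retinas. The members do not cover every GABA-A subunit, so this is a share of the members only. Of the glycine receptor alpha subunits, Glra2 was highest at 4.80 CPM per kb, then Glra1 at 2.73, Glra3 at 2.51 and Glra4 at 0.857. The shared beta subunit Glrb, which anchors glycine receptors to gephyrin, stood above all of them at 22.9. Gabra6, an alpha subunit known from cerebellar granule cells, had 0 counts in all 5 libraries, where 3 counts would be 0.0526 to 0.0751 CPM.

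**Figure D1:**
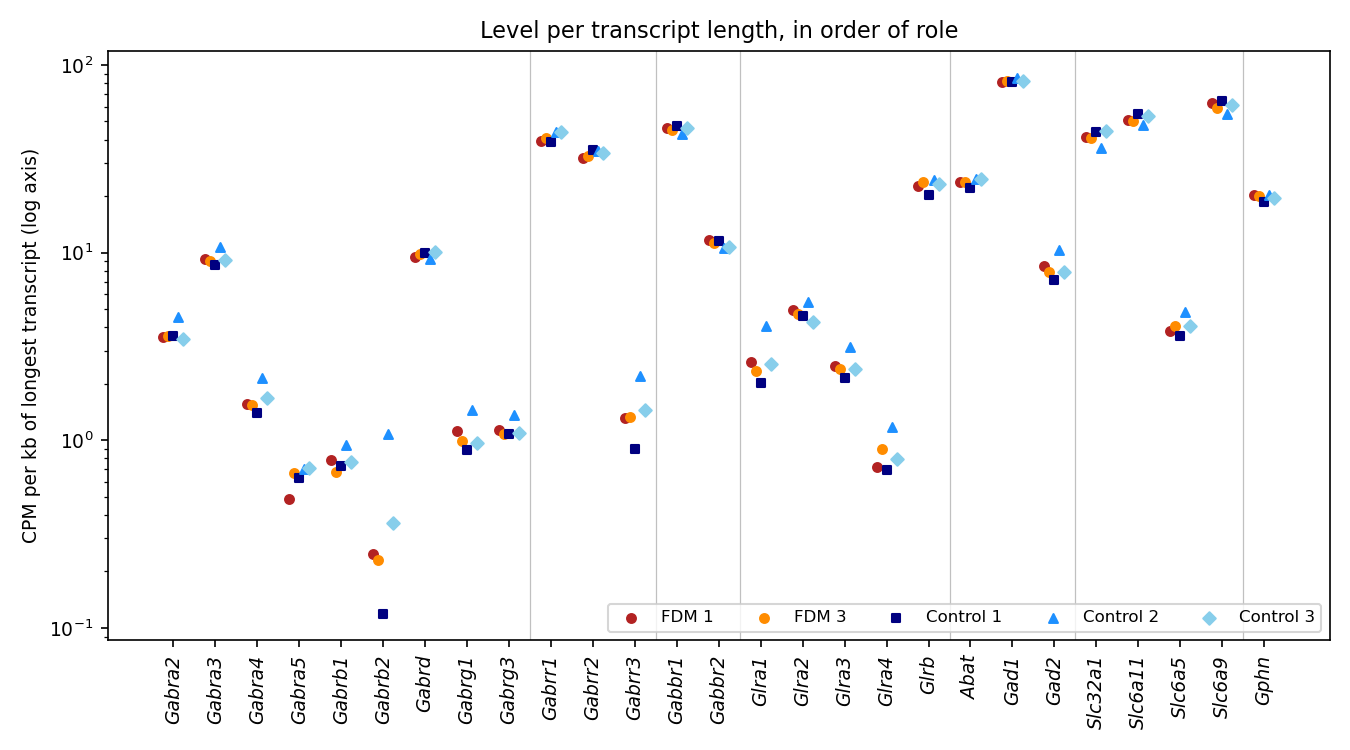
Level of the 27 members with counts, as CPM per kb of the longest transcript on a log axis, with 1 point per library and genes grouped by role. Gad1 is highest in every library, at 81.1 to 85.7, and the points of Gabrb2 spread the most, from 0.119 to 1.08.

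FDM and control retinas were then compared to ask whether 2 weeks of form deprivation moved the transcripts of inhibitory signalling. Of the 28 members, 27 passed the filter of more than 10 counts in at least 2 libraries, and Gabra6 did not. In edgeR's quasi-likelihood test, 0 of the 27 had an unadjusted p under 0.05, the threshold that the study uses, against 1.61% of the 17432 genes tested. DESeq2 and limma also called 0 members. After Benjamini-Hochberg adjustment over all genes tested, edgeR called 0 members and 0 genes (0% of genes), and the smallest adjusted p was 0.99999. The unadjusted p values of the members ran from 0.176, for Gabrb2, to 0.965, for Gabbr1. The log2 fold change of FDM against control was above 0 for 6 members and below 0 for 21, with a median of -0.07, beside -0.01 for all genes tested and a median standard error of 0.13 for the members. This direction rested on Control 2: without it, 17 members were above 0 and 10 below, with a median of 0.03.

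How far the data bound a change differed between members. The 95% interval of the fold change lay within 1.25-fold in either direction for 14 of the 27 members, within 1.5-fold for 20 and within 2-fold for 26. The exception was Gabrb2. For 25 of the 27 members the controls alone spanned a wider log2 range than the difference between the groups. That count was not made for all genes, so it is not read as a trait of the members. For 20 members both FDM libraries lay within the range of the controls. The share of all genes with both FDM libraries inside the control range was not counted either. Taken singly, FDM 1 had the highest CPM for 11.6% of all genes tested and FDM 3 for 9.03%. The lowest CPM was in FDM 1 for 16.7% of all genes and in FDM 3 for 10.4%. With 2 against 3 libraries, p-values measure the spread between these eyes, and 2 pairs of them share a mouse.

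**Figure D2:**
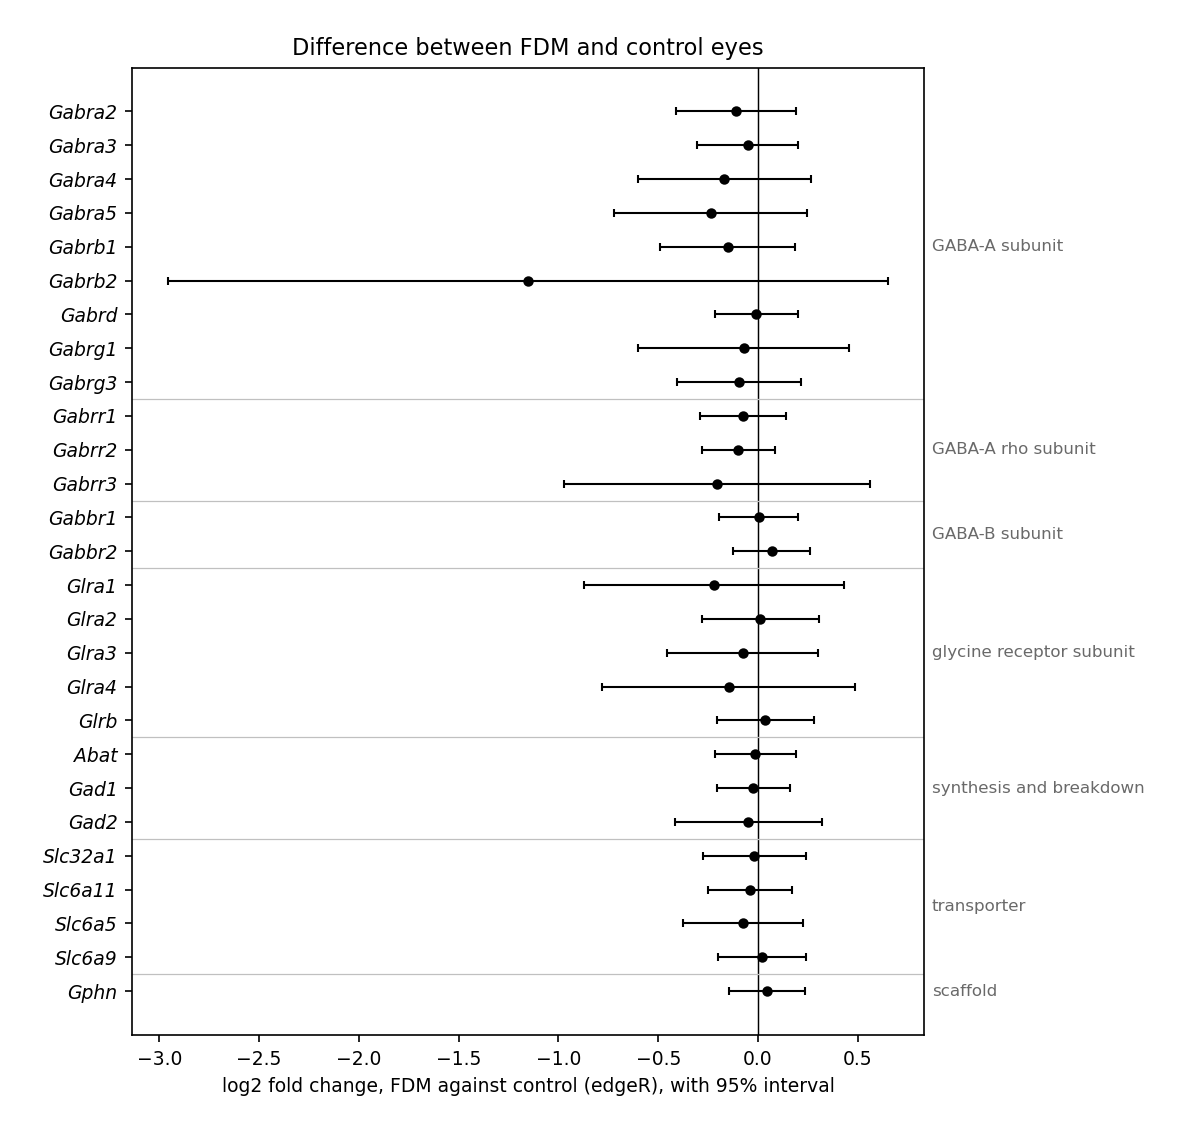
log2 fold change of FDM against control (edgeR) for the 27 members tested, grouped by role, where points are estimates and bars their 95% intervals. Every interval crosses 0, and that of Gabrb2 is the widest, from -2.96 to 0.65.

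Enzymes of GABA synthesis and breakdown were close to equal in the 2 groups. Gad1 had 272 and 275 CPM in FDM 1 and FDM 3, and 272, 288 and 275 CPM in Controls 1, 2 and 3. The FDM libraries lay at the level of Controls 1 and 3, and the log2 fold change was -0.02 (SE 0.08), with an interval of 0.866-fold to 1.12-fold. Gad2, the smaller decarboxylase found at nerve terminals, had 48.9 and 45.1 CPM in FDM and 40.9, 59.5 and 45.3 CPM in control libraries. Both FDM values fell between the controls, and the log2 fold change was -0.05 (SE 0.16). Gad1 made up 90.9% ± 0.546 (SD, n = 2) of the 2 decarboxylases per kb in FDM and 90.8% ± 1.40 (SD, n = 3) in control retinas. Abat, the transaminase that breaks GABA down, had CPM of 110.0 and 109.7 in FDM and 103 to 115 in control, a log2 fold change of -0.01 (SE 0.09).

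Transporters did not differ beyond the spread of the controls either. Slc32a1, which loads GABA and glycine into vesicles (chr2:158610767-158615748), had 116 and 114 CPM in FDM and 123, 101 and 125 CPM in Controls 1, 2 and 3. Control 2 lay under both FDM values and the other controls above them, and the log2 fold change was -0.02 (SE 0.11). The library kit does not mark strand, and 24.9% of the exon bases of Slc32a1 overlap the antisense gene Gm14205, so reads of both cannot be told apart there. Slc6a9, the transporter that glycinergic amacrine cells use to take up glycine, had 217 and 206 CPM in FDM and 223, 192 and 212 CPM in control libraries. Its groups overlapped, with a log2 fold change of 0.02 (SE 0.09), and 27.8% of its exon bases overlap Ccdc24 on the other strand. Slc6a11, a GABA transporter, had 207 to 211 CPM in FDM retinas, with 198 to 225 in the controls. Slc6a5, the glycine transporter known from spinal cord and brainstem, had 26.9 to 28.9 CPM in FDM retinas, with 25.4 to 34.1 in the controls. The log2 fold changes of these transporters were -0.04 and -0.07, with intervals within 1.5-fold.

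All 9 GABA-A alpha, beta, gamma and delta subunits tested had log2 fold changes below 0, from -0.01 for Gabrd to -1.15 for Gabrb2, with a median of -0.11, and 0 of them passed the test. With the mouse as a block in edgeR, 6 of the 9 were above 0, with a median of 0.02, and without Control 2 5 were. Gabrb2, a beta subunit (chr11:42419757-42629028), had 43 and 44 counts in FDM 1 and FDM 3 and 19, 246 and 69 counts in Controls 1, 2 and 3. These were 0.992 and 0.915 CPM in FDM and 0.476, 4.32 and 1.45 CPM in control. Control 1 lay under both FDM libraries and Control 2 at 9.07 times the CPM of Control 1, and the log2 fold change was -1.15 (SE 0.77). Without Control 1 the log2 fold change of Gabrb2 was -1.60 and passed the unadjusted threshold (edgeR adjusted p = 0.729), in a fit that called 5.45% of all genes. Without Control 2 it was -0.03, with the mouse as a block 0.03, with limma on normalized counts -0.54, and with an offset for transcript GC content beside the block 0.00, none of which passed. Gabrd, the delta subunit of extrasynaptic receptors, had 18.3 and 19.0 CPM in FDM and 19.2, 17.8 and 19.3 CPM in control libraries, with a log2 fold change of -0.01 (SE 0.09). The alpha subunits Gabra2, Gabra3, Gabra4 and Gabra5 had log2 fold changes of -0.11, -0.05, -0.17 and -0.24, and Gabrb1, Gabrg1 and Gabrg3 had -0.15, -0.07 and -0.10. In 7 of the 9 subunits, Control 2 had the highest CPM of all libraries.

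The one member whose groups did not overlap was a subunit of the rho family. Gabrr2 (chr4:33062999-33095865) had 61.6 and 63.4 CPM in FDM and 68.2, 67.2 and 65.5 CPM in Controls 1, 2 and 3. Both FDM values lay under the lowest control, with a log2 fold change of -0.10 (SE 0.08) and an interval of 0.822-fold to 1.06-fold. Among all genes tested, 10.6% had groups that did not overlap, and 1 of 27 members is under that share. Its neighbour on the same strand, Gabrr1, had 90.4 and 93.4 CPM in FDM and 88.9, 101 and 101 CPM in control libraries, so that Control 1 lay under both FDM values. The log2 fold change of Gabrr1 was -0.08 (SE 0.09). Gabrr3 had 5.61 and 5.70 CPM in FDM and 3.83, 9.42 and 6.17 CPM in control libraries, with a log2 fold change of -0.20 (SE 0.33). The FDM libraries of Gabrr3 differed little, while its controls differed 2.46-fold.

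The GABA-B subunits both had log2 fold changes above 0, although with the mouse as a block 1 was above and 1 below. Gabbr1, the subunit that binds GABA, had 242 and 236 CPM in FDM and 249, 224 and 242 CPM in control libraries, with a log2 fold change of 0.00 (SE 0.08). Gabbr2, the subunit that couples to G proteins, had 67.0 and 65.02 CPM in FDM and 66.4, 61.2 and 61.3 CPM in control libraries, with a log2 fold change of 0.07 (SE 0.08). Gabbr1 made up 79.8% and 79.9% of the summed GABA-B level per kb in the FDM libraries and 80.4%, 80.0% and 81.2% in control libraries. These groups did not overlap, and the difference was -0.70 percentage points, with a two-sided exact permutation p of 0.2 (adjusted p = 1 over 11 shares). With 2 against 3 libraries this test cannot go below 0.1, so none of the 11 shares could reach the threshold.

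Glycine receptor subunits, like the transporters, did not differ beyond the spread of the controls. Glrb had 68.8 and 71.9 CPM in FDM and 61.2, 73.9 and 70.5 CPM in control libraries, with a log2 fold change of 0.04 (SE 0.10). Glra1, an alpha subunit, had 6.27 and 5.61 CPM in FDM and 4.83, 9.74 and 6.11 CPM in control libraries. Control 1 lay under and Control 2 above both FDM values, and the log2 fold change was -0.22 (SE 0.28). Glra2, Glra3 and Glra4 had log2 fold changes of 0.01, -0.08 and -0.15. Within the alpha subunits, Glra2 made up 45.7% ± 0.340 (SD, n = 2) of the summed level per kb in FDM and 43.6% ± 4.61 (SD, n = 3) in control retinas. Gphn, gephyrin, the scaffold under glycine and many GABA-A receptors, had 72.8 and 71.3 CPM in FDM and 66.7, 72.5 and 70.1 CPM in control libraries, with a log2 fold change of 0.05 (SE 0.08).

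Control 2 stood apart for these genes. It had the highest CPM for 18 of the 27 members, against 31.4% of all genes tested, and the lowest for 6, against 30.9%. Control 1 had the lowest CPM for 14 members, against 24.0% of all genes. All 5 glycine receptor subunits were highest in Control 2, and 3 of the 4 transporters and both GABA-B subunits were lowest there. In the plot of each library against the mean of the controls, the points of Control 2 therefore lie to the right for most receptor subunits and to the left for Slc32a1, Slc6a9, Slc6a11 and Gabbr1.

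**Figure D3:**
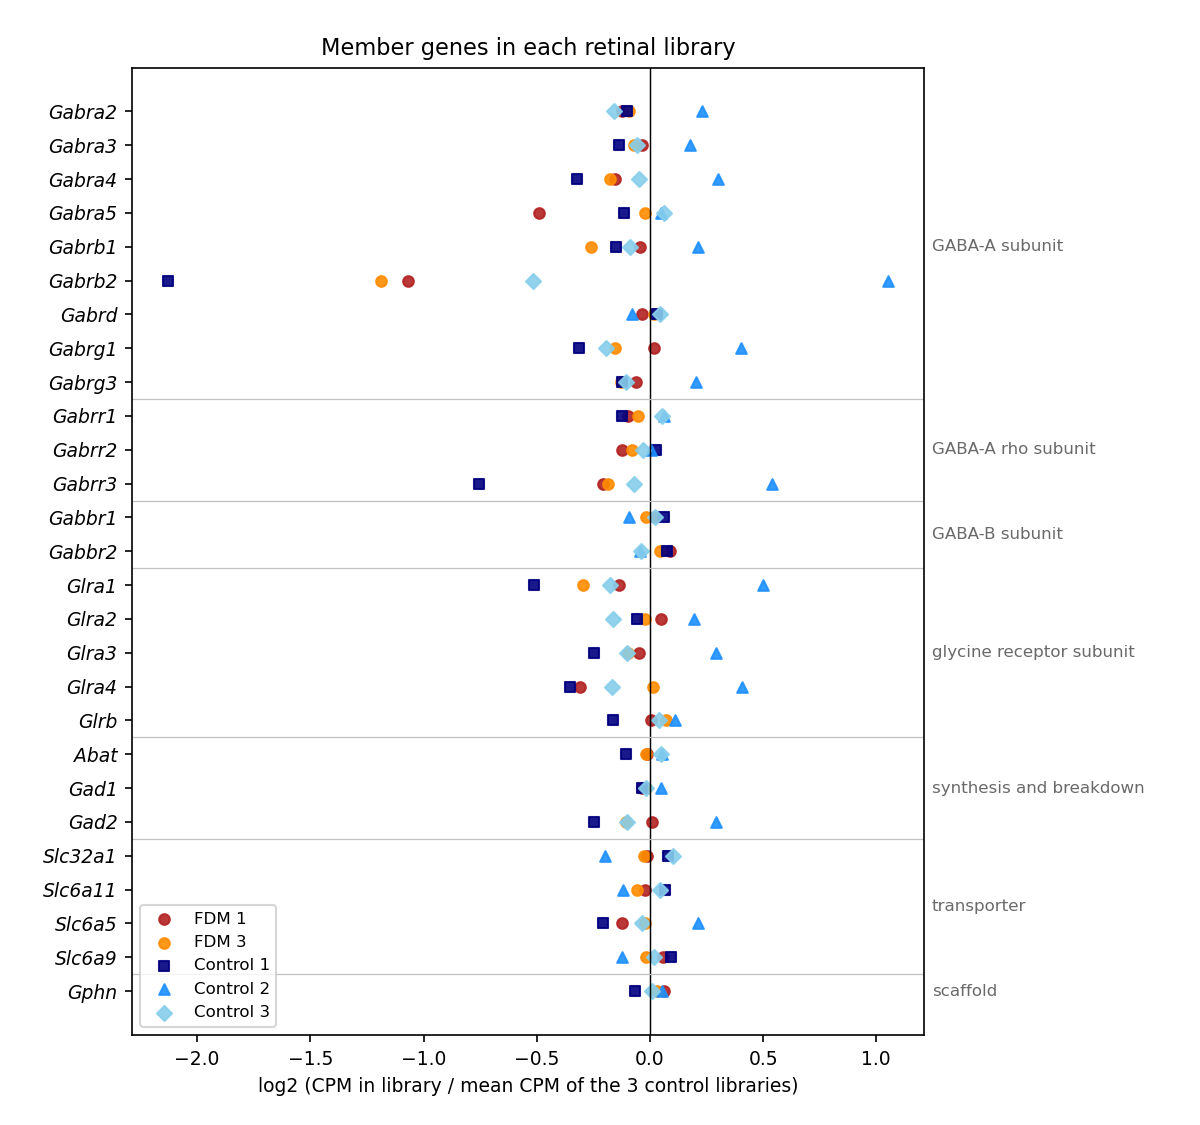
log2 ratio of each library's CPM to the mean CPM of the 3 control libraries for the 27 members, with 1 symbol per library and genes grouped by role. Control 2 is the highest library for 18 members, and both FDM libraries lie within the range of the controls for 20.

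The position of Control 2 moved with the GC content of the transcripts. The difference between Control 2 and the mean of Controls 1 and 3, in log2 CPM, had a Spearman correlation with transcript GC content of -0.71 over the 27 members and of -0.65 over 14805 genes above 1 CPM on average. These values describe genes that share the same libraries and carry no test. Among the 14 members at or under the median GC content (35.2% to 48.1%), Control 2 was highest for 12 and lowest for 0. Among the 13 members over it (48.2% to 61.9%), it was highest for 6 and lowest for 6. After a smooth curve of each library on GC content had been taken off the CPM, a step chosen after seeing the data, the ratio of the highest to the lowest control fell from a median of 1.24 to 1.103 over the members and from 1.20 to 1.15 over all genes above 1 CPM. GC-adjusted CPM of Gad1 in Controls 1, 2 and 3 were 277, 280 and 277, and those of Slc6a9 were 209, 209 and 210. The controls still differed more than 1.5-fold for 4 members: Gabrb2 by 7.78-fold, Glra1 by 2.17-fold, Gabrr3 by 2.00-fold and Glra4 by 1.65-fold. With the GC adjustment as an offset in edgeR, the median standard error of the members was 0.08, the median log2 fold change was -0.04, and 0 members were called. The adjustment did not change how often Control 2 stood highest: it had the highest GC-adjusted CPM for 18 members, the same number as before. The members were not all the same, as Gabrd and Gabrr2 came in and Glra2 and Glrb fell out. Control 2 was then lowest for Gabbr1 and Glrb, and no longer for Gabrd, Gabbr2, Slc32a1, Slc6a11 and Slc6a9. The share of all genes with Control 2 highest after adjustment is not given here.

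**Figure D4:**
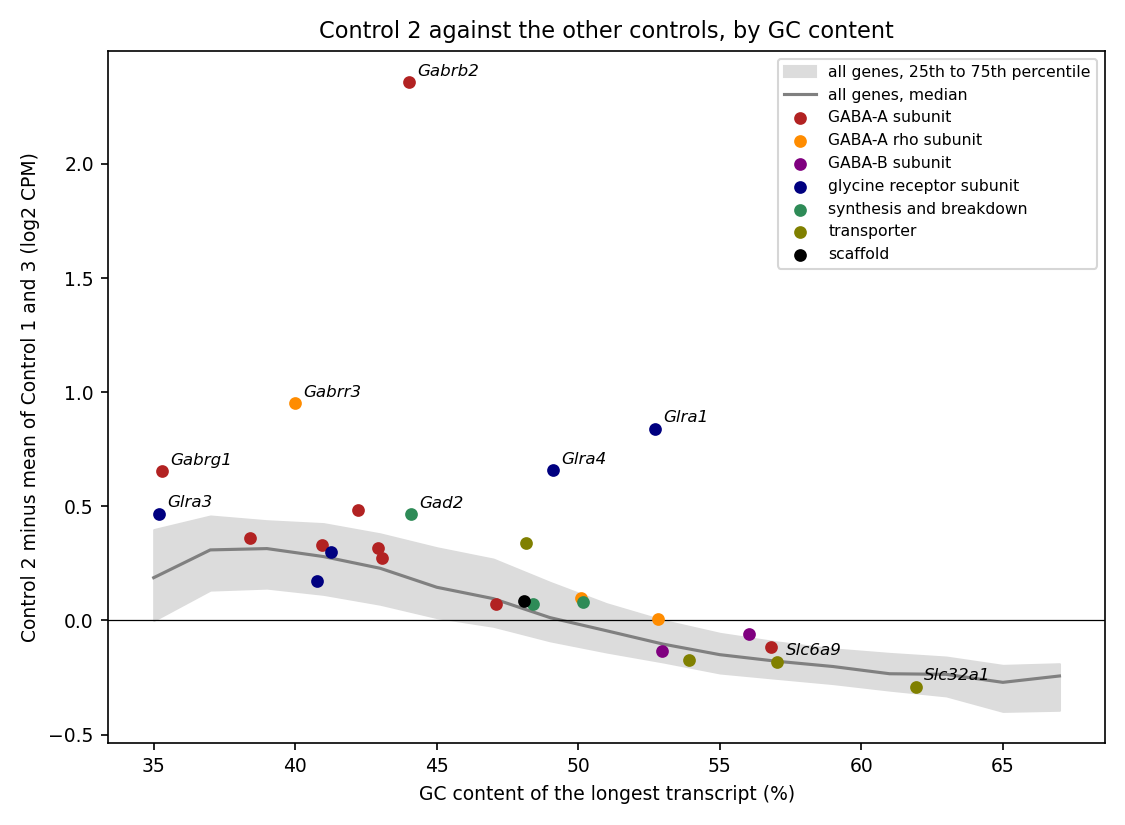
Control 2 minus the mean of Controls 1 and 3 (log2 CPM) against the GC content of the longest transcript (%), for the 27 members by role, with the median and the 25th to 75th percentiles of all genes above 1 CPM in bins of GC content. Members fall with rising GC content as all genes do, but 21 of the 27 lie above the median of their bin, 13 of them above its 75th percentile, and Gabrb2, Gabrr3, Glra1 and Glra4 are among these.

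Within mice, the direction of the members was mixed. In the mouse of FDM 1 and Control 1, 18 of the 27 members were higher in the FDM eye, and in the mouse of FDM 3 and Control 3, 10 were. Members higher in the FDM eye of both mice numbered 8, and those lower in both numbered 7, while 24.7% of all genes tested were higher and 30.3% lower in both. Gad1 differed by 0.00 (log2) in both mice. Gabrb2 was higher by 1.06 in the FDM eye of the first mouse and fell by 0.67 in that of the second. With the mouse as a block in edgeR, 0 members had an unadjusted p under 0.05, against 7.23% of genes, and the median log2 fold change was 0.02, with 18 members above 0. That fit has 1 residual degree of freedom, and Control 2, with no partner, adds nothing to the difference in it. When the eyes were instead paired by the numbers of the labels, 1 member was called, Gabrb2, against 2.52% of genes. Its log2 fold change was -0.90 (edgeR adjusted p = 0.447). The pairs of that fit went opposite ways for Gabrb2. It had 0.992 CPM in FDM 1 and 0.476 in Control 1, but 0.915 in FDM 3 and 4.32 in Control 2. The fit by label numbers also has 1 residual degree of freedom.

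Outside the members, a wider list of 32 genes of GABA and glycine metabolism, uptake, chloride balance and receptor anchoring was examined, of which 31 were tested. In edgeR 0 rose and 2 fell at the unadjusted threshold, against 1.61% of genes in either direction, and 0 after adjustment. Slc6a13, a GABA transporter known from the RPE and the brain's coverings, had 2.91 and 3.95 CPM in FDM and 3.38, 18.8 and 14.2 CPM in Controls 1, 2 and 3. Control 1 lay within the FDM range, and the log2 fold change of Slc6a13 was -1.83 (SE 0.63, adjusted p = 0.99999). It no longer passed the unadjusted threshold in edgeR without FDM 1, without Control 2 or without Control 3, nor with limma, and its log2 fold change was then -1.36 to -1.70. Without Control 1, whose value is near those of FDM, it was -2.26 (edgeR adjusted p = 0.0213). Summed RPE markers were likewise high in Controls 2 and 3, at 246 and 207 CPM, and low in the other libraries, at 50.5 to 67.9 CPM, and 6 of the 7 markers were called lower in FDM. None of the 7 was at 0 in any library, and their part in the change of Slc6a13 was not tested. The study's own list of changed genes from these libraries holds Slc6a13, so its call is not independent of that list.

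Slc7a10, a transporter of glycine, alanine and serine, had 0.669 and 0.499 CPM in FDM and 1.002, 1.86 and 1.41 CPM in control libraries, which did not overlap. In the wider list, 6 of the 31 genes tested had groups that did not overlap, in either direction, against 10.6% of all genes. The log2 fold change of Slc7a10 was -1.30 (SE 0.32, adjusted p = 0.99999), from 24 to 106 counts per library. Of its exon bases, 17.9% overlap Lrp3 on the other strand. Slc7a10 kept an unadjusted p under 0.05 in edgeR with any single control left out, and with DESeq2 and limma, but did not pass adjustment in these fits. Its log2 fold change was -1.52 without FDM 1 and -1.10 without FDM 3. Slc6a12, the GABA and betaine transporter next to Slc6a13, had 8.63 and 8.73 CPM in FDM and 7.89, 9.81 and 8.63 CPM in control libraries, a log2 fold change of -0.02 (SE 0.13). With the mouse as a block, 5 genes of the 31 were called, against 7.23% of genes, all lower: Slc6a13 and Slc7a10, the glycine cleavage protein gene Gcsh, and Gabarapl1 and Gabarapl2, relatives of the GABA-A receptor-associated protein. The blocked log2 fold changes were -1.19 for Slc6a13, -1.05 for Slc7a10, -0.15 for Gcsh, and -0.13 for both Gabarapl1 and Gabarapl2, and 0 of them passed adjustment in that fit. With a GC offset and the block the count was also 5, but Gabarapl1 was no longer called. Aldh5a1, which encodes an enzyme of GABA breakdown, was called higher there, by 0.13 (log2, edgeR adjusted p = 0.628). The number of all genes called in that fit is given in the last section. With the block by label numbers, which called 2.52% of genes, Slc6a13 and Slc7a10 were the genes of the list called. Their log2 fold changes were -1.33 (edgeR adjusted p = 3.2e-07) and -1.27 (edgeR adjusted p = 0.0166). This fit also has 1 residual degree of freedom, and its pairs differed in size. Slc6a13 had 2.91 CPM in FDM 1 and 3.38 in Control 1, but 3.95 in FDM 3 and 18.8 in Control 2. Those adjusted p-values therefore do not show that the pairs agreed.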

How the data were processed

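The authors made poly-A libraries with a TruSeq v2 kit, which does not mark strand. The authors quantified reads with Salmon and deposited estimated counts per gene as whole numbers. The submitters' processing notes name Trimmomatic 0.39, Salmon 1.10.1, R 4.3.1 and the build GRCm38. A second deposited table holds DESeq2-normalized counts (unit: signal), used here only for limma and for offsets. The authors excluded 1 FDM library because of read duplication.

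Testing used the estimated counts of genes over 10 counts in 2 or more libraries, with edgeR 4.0.16 in R 4.3.3 (TMM, quasi-likelihood test, no covariate, all 5 libraries). Benjamini-Hochberg values cover all genes tested. Standard errors and 95% intervals come from the same fit. Exact two-sided permutation tests were used for shares. Alternatives used DESeq2 1.42.0, limma 3.58.1, other normalization and filters, blocks, libraries left out, and, added after seeing the data, a GC offset (lowess span 0.3 on transcript GC content). The script was tested on simulated counts.

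Deviations from the group means, over 14815 genes, correlated at 0.35 for FDM 1 with Control 1 and 0.14 for FDM 3 with Control 3, which the paper's mouse numbers place in the same mice. The pair that the labels' numbers imply, FDM 3 with Control 2, correlated at 0.22. With 2 FDM libraries the deviation of FDM 3 is that of FDM 1 with the sign turned (correlation -1). FDM 3 thus carries no value of its own, and these correlations cannot decide which control shares its mouse. The paper reports that samples of the same animal lay together in its principal component analysis of this experiment. No pair of libraries agreed within counting noise (chi-square per degree of freedom 11.95 or more).

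Coordinates are from GENCODE M21 (GRCm38). Members and lists were chosen with earlier results of these data known, and all members are named. The members do not cover every GABA-A subunit. Full values are given for members called or not overlapping, the highest of each role and a few fixed genes, and some further members were described after their values were seen.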

Additional observations from a re-analysis of the deposited data

How the results depend on the processing

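The count of members called stayed at 0 under every normalization, filter and test tried, and with the mouse block, the GC offset and both together. It was 1, Gabrb2, with the block by label numbers, and ranged from 0 to 1 over fits leaving out 1 library. No member's call reversed. Members whose groups did not overlap numbered 2 with library totals (10.3% of all genes) and 4 with the GC offset (12.7%), and 1 to 8 with 1 library left out (8 without Control 1, where 37% of all genes did not overlap, and 8 without Control 2, with 32%); this count was not made for DESeq2, limma or the blocks. The direction of member values was less stable: the sign changed for 16 of 27 under the mouse block, 15 without Control 2, 11 with GC offset and block, and at most 5 under any other alternative. Over all genes, 281 were called in the fit reported, 172 with DESeq2 (3 after adjustment), 498 with no filter, 1261 with the mouse block, 439 with the block by label numbers, 1367 with GC offset and block, and 146 to 946 with 1 library left out (946 without Control 1, 535 without Control 2). In the wider list the count of 2 became 5 with the mouse block, 5 with GC offset and block (4 lower and 1 higher), 1 with limma at either pseudocount (1 and 0.1), and 1 to 6 with 1 library left out (6 without Control 1). The mouse block changed no call among the members. Low counts limit Gabrb2, Gabra5 and Glra4, with 19 to 246, 56 to 107 and 51 to 123 counts per library, and 2 FDM libraries limit every comparison.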
